A study of Caenorhabditis elegans with 66 samples.

Results

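The binding of SNPC-4 was mapped in Caenorhabditis elegans gravid adults that lacked snpc-1.2 and in adults that carried it. The comparison used 6 of the 66 samples of the series, chosen by their labels. They were 3 immunoprecipitated libraries of snpc-4::3xflag; snpc-1.2(-) worms and 3 of snpc-4::3xflag worms, all from whole worms collected at 72 h. Both groups therefore carried the same FLAG-tagged SNPC-4, and they differed by the snpc-1.2 mutation, whose extent the labels do not give. The snpc-1.2(-) worms are called the null below, and the snpc-4::3xflag worms the control. Lists of 4 kinds were used beside them: SNPC-4 in 48 h L4 larvae of genotype snpc-4::3xflag, the same larvae with snpc-1.3(-), SNPC-1.2 in 72 h adults of genotype snpc-1.2::3xflag, and SNPC-1.1 in isolated germline nuclei of 56 h young adults of genotype snpc-1.1::3xflag (3 libraries each). The untagged wild type N2 at 72 h (3 libraries) gave the background. By their labels, all SNPC-4 and N2 libraries used here belong to the same dataset. The SNPC-1.2 and the SNPC-1.1 libraries each belong to another. Where SNPC-4 is set beside SNPC-1.2 or SNPC-1.1, the tagged protein and the dataset therefore differ together. In whole worms, binding in fewer nuclei and less binding per nucleus cannot be told apart.

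SNPC-4 is the worm homologue of the large DNA-binding subunit of SNAPc, the activating complex of small nuclear RNA (snRNA) genes, which recruits RNA polymerase there and to other short RNA genes. In C. elegans the same protein sits on piRNA genes, which encode the small RNAs that guide the Argonaute PRG-1 in the germline and which lie mostly in a pair of broad clusters on chromosome IV. SNPC-1.2 and its relatives SNPC-1.1 and SNPC-1.3 are homologues of the human subunit SNAPC1, and SNPC-1.3 is known for its part in making male piRNAs. The question was where SNPC-4 bound differently in adults without SNPC-1.2.

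The deposited data are lists of called peaks, each with a summit and the authors' fold over background at that summit. The control lists held 15682 to 16534 peaks, the null lists 14538 to 16451 and the N2 lists 1400 to 4229, and the read depth behind them is unknown. The larger cluster is taken as chromosome IV from 13.5 to 17.2 Mb on WBcel235 and holds 11388 annotated piRNA genes, and the smaller as 4.5 to 7 Mb with 2816. A further 1159 piRNA genes lie elsewhere. A gene of up to 500 bp counts as bound, or as having a peak, if its span extended by 200 bp on each side holds a summit. For a longer gene the summit must be no more than 200 bp from one of its ends. With 3 libraries against 3, the exact permutation test cannot give a p below 0.1, so no single difference between the groups could pass a threshold of 0.05. Nothing in the labels says whether the libraries of a group came from separate cultures, so p-values measure only the spread between these samples. Of the 6 libraries, null replicate 1 stood apart by the length that its called regions covered in the smaller cluster, and results that rest on it are also given without it.

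In the larger cluster fewer piRNA genes had an SNPC-4 peak in the null. The control libraries had a peak at 69.1%, 66.6% and 68.5% of the genes and the null libraries at 59.8%, 59.4% and 61.9%. The groups did not overlap, and the difference was −7.73 percentage points (exact permutation p = 0.1, adjusted p = 0.17 over 39 tests). It was −1.83 points with a 500-bp window, −13.1 points among peaks with a fold of at least 3 and −0.67 points by overlap with called regions, where the groups overlapped (exact permutation p = 0.2). In N2 the mean was 0.0673%. At the smaller cluster the control libraries had a peak at 65.7%, 63.7% and 65.9% of the genes and the null libraries at 67.5%, 64.7% and 65.3%. Those groups overlapped (difference 0.73 points, exact permutation p = 0.6), and the difference was −0.11 points without null replicate 1. This value depended on how a peak was counted: it was −2.96 points with a 100-bp window, 4.33 points by overlap with called regions, 3.504 points at −log10 q of at least 5, 6.70 points with lists of equal length and 28.4 points among peaks with a fold of at least 3, each with groups that did not overlap (exact permutation p = 0.1). Within each library, the larger cluster's percentage less that of the smaller was 2.64 to 3.41 points in the control and −7.74 to −3.39 points in the null, a change of −8.46 points (exact permutation p = 0.1).

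For piRNA genes outside both clusters the null libraries were higher. The control libraries had a peak at 13.7%, 13.3% and 14.2% of these genes and the null libraries at 16.5%, 16.0% and 16.0% (difference 2.42 points, exact permutation p = 0.1). The groups did not overlap, and the N2 mean was 1.58%. The difference was 0.75 points with a 100-bp window, and among peaks with a fold of at least 3 it was 0.20 points with overlap (exact permutation p = 1).

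**Figure D1:**
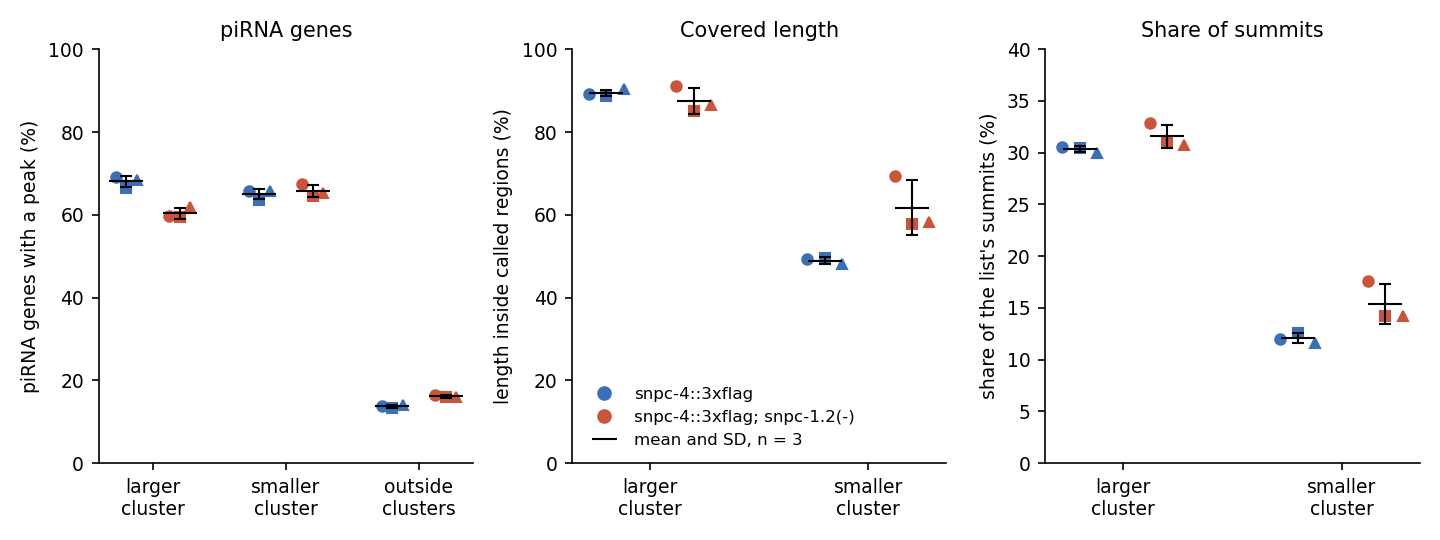
Percent of piRNA genes with a peak, percent of cluster length inside called regions, and percent of a list's summits in each cluster; each point is 1 library (circle, square and triangle for replicates 1, 2 and 3), and bars give mean and SD (n = 3). The null libraries lie below the control for genes of the larger cluster, and above it for the covered length and summit share of the smaller cluster.

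A gene was called lost when all 3 control libraries and no null library had a peak, and gained in the reverse case. Over all 46926 annotated genes, 1.61% were lost and 0.631% were gained. In the larger cluster 548 piRNA genes were lost (4.81%) and 157 gained (1.38%), while 4525 had a peak in all 6 libraries. The balance was the other way in the smaller cluster, with 40 lost (1.42%) and 69 gained (2.45%). Outside the clusters 4 genes were lost and 22 gained, the latter 1.90% of 1159, and all 26 lie on chromosome IV, which holds 510 of those 1159 genes. Neighbouring piRNA genes share summits: the 548 lost genes of the larger cluster formed 294 groups of genes no more than 200 bp apart, and the 157 gained genes formed 106. Leaving out a library relaxes the rule: without control replicate 1 or 3 the gained genes of the larger cluster numbered 245 and 277, and the lost genes of the smaller cluster numbered 57 to 71 over the 6 libraries left out in turn.

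The losses were spread along the whole larger cluster. Every one of its 37 bins of 100 kb held a lost gene, and 36 of them held more lost than gained genes. The lost share of a bin's piRNA genes ran from 1.55% to 7.89%, with a median of 4.62%. Of the 25 bins of the smaller cluster, 12 held more gained than lost genes and 5 held more lost genes.

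Single genes show these calls. The genes named are those with the highest authors' fold among the lost or gained, so they do not stand for the rest, and folds are not compared between libraries. In the larger cluster the median fold was 5.39 at lost genes in the control lists, 4.31 at gained genes in the null lists and 5.94 at genes held by all 6. In the smaller cluster these medians were 2.01, 2.48 and 3.66. The lost gene of the larger cluster with the highest fold, 21ur-8500 (IV:16538064-16538084), had a summit with a fold of 10.5, 8.64 and 11.1 in the control lists and none in the null lists. It was followed by 21ur-6588 (IV:16015044-16015064) with folds of 9.48, 8.05 and 11.7. Next came 21ur-11833 (IV:14968358-14968378) and 21ur-6316 (IV:14968359-14968379), which lie 1 base apart and share 1 summit in each list, with folds of 9.04, 7.59 and 11.1. SNPC-1.2 had a peak at these 4 genes in at least 2 of its 3 lists.

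The gained genes of the larger cluster were led by 21ur-14204 (IV:13988370-13988390) and 21ur-2034 (IV:13988371-13988391), again 1 base apart, with folds of 8.99, 8.50 and 8.29 in the null lists and no summit in the control lists. Then came 21ur-1516 (IV:13758037-13758057), with folds of 8.57, 8.13 and 7.21. The fourth, 21ur-9464 (IV:17176438-17176458), had folds of 8.03, 6.72 and 7.54 and had a peak in all 3 of the SNPC-1.2 lists. Both 21ur-14204 and 21ur-2034 had one in 2 of those lists, and 21ur-1516 in 1.

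Leading lost genes of the smaller cluster had lower folds. The control lists gave 21ur-14006 (IV:6062637-6062657) folds of 2.61, 4.43 and 5.10 and 21ur-4658 (IV:5823238-5823258) folds of 3.36, 3.48 and 3.93. Among the gained genes, 21ur-6602 (IV:5605101-5605121) had folds of 5.93, 6.01 and 6.04 in the null lists and 21ur-6190 (IV:6039991-6040011) folds of 5.17, 5.82 and 5.25. Outside the clusters the lost 21ur-11450 (IV:17205060-17205080) and 21ur-7710 (IV:17205085-17205105) shared a summit with folds of 2.01, 2.32 and 2.72. The gained 21ur-9307 (IV:17225549-17225569), just past the larger cluster, had folds of 5.30, 4.97 and 4.29, and 21ur-6266 (IV:7281763-7281783), just past the smaller, had folds of 2.36, 2.68 and 2.94.

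Most of the lost genes of the larger cluster lay inside called regions of the null as well. Of the 548, 511 (93.2%) overlapped a called region in all 3 null libraries, although no null summit lay within 200 bp, and 37 did not. All 157 gained genes likewise lay in called regions of all 3 control libraries. When a gene counted as bound wherever a called region overlapped it, 5 genes of the larger cluster were lost and 0 gained. The larger cluster was covered by called regions over 89.3%, 88.7% and 90.3% of its length in the control and 91.1%, 85.0% and 86.5% in the null, and the groups overlapped (difference −1.94 points, exact permutation p = 0.4). The overlap rested on null replicate 1: without it the difference was −3.73 points and the groups did not overlap (exact permutation p = 0.1). In the bin at 2800 kb from the cluster's start, called regions covered 85.6, 87.2 and 90.8 kb in the control and 90.4, 66.6 and 68.1 kb in the null. The number of summits overlapped between the groups in all 37 bins of the larger cluster. Over the 1005 bins of the genome, 17.7% had fewer summits in all 3 null libraries. The covered length was lower in all 3 null libraries in 3 of the 37 bins, against 53% of the bins of the genome.

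The smaller cluster differed in the extent of the called regions. Their length was 1233, 1236 and 1202 kb in the control and 1733, 1442 and 1455 kb in the null, or 49.3%, 49.5% and 48.1% of the cluster against 69.3%, 57.7% and 58.2%. The null libraries were all higher, by 12.8 points on average (exact permutation p = 0.1), or by 8.99 points without null replicate 1. In the snpc-1.3(-) larvae the same difference was 2.22 points, and the 2 differences themselves differed by 10.6 points (stratified exact permutation p = 0.09, adjusted p = 0.17). That last test was added after the values were seen, and in it the deleted gene and the age of the worms cannot be told apart. Of the 69 gained genes of the smaller cluster, 64 lay in a called region of every null library and 21 in one of every control library.

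The extra length was found along nearly the whole smaller cluster. In 23 of its 25 bins of 100 kb the covered length was higher in all 3 null libraries than in any control library, and in none was it lower. Over the 1005 such bins of the genome, 2.99% were higher and 53% were lower in the null. From 2400 kb after the cluster's start to its end, the control libraries had 23.4, 19.4 and 20.0 kb in called regions and the null libraries 45.8, 37.6 and 37.7 kb. The widest difference of means, 24.6 kb, was in the bin at 1700 kb, with 32.1, 37.4 and 32.7 kb in the control and 75.9, 49.8 and 50.3 kb in the null. Summits were more frequent in all 3 null libraries in 12 of the 25 bins, against 2.09% of the bins of the genome. In the first megabase after the cluster, outside it, the control libraries had 116, 106 and 110 summits and the null libraries 140, 130 and 134, while in the megabase before it the groups overlapped (112 to 115 against 98 to 119).

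**Figure D2:**
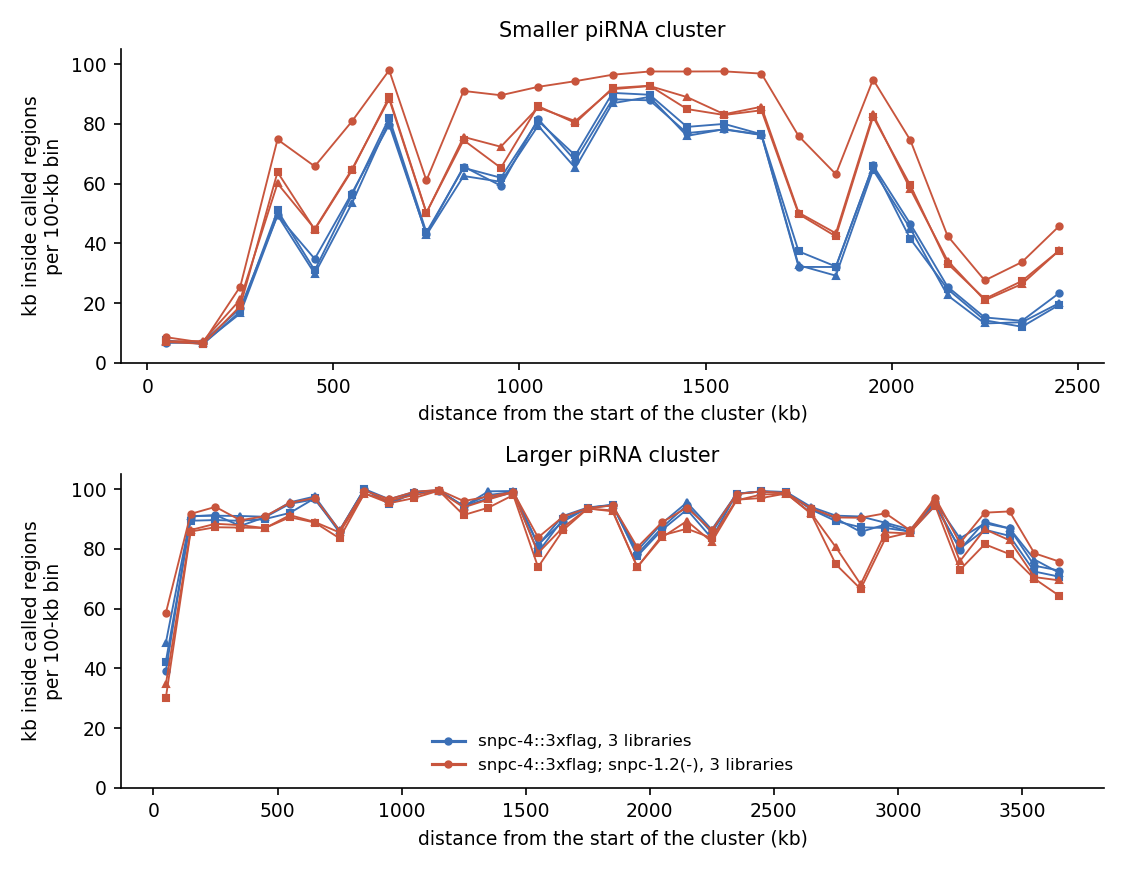
Kilobases inside called regions in each 100-kb bin against distance from the cluster's start in kb; each line is 1 library. In the smaller cluster the 3 null lines lie above the 3 control lines in 23 of 25 bins, while in the larger cluster the lines overlap in 34 of 37 bins.

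The share of all summits that fell in the smaller cluster was 12.0%, 12.5% and 11.7% in the control and 17.6%, 14.2% and 14.3% in the null (difference 3.28 points, exact permutation p = 0.1). The share of the 1000 highest-fold peaks of a list that lay there was 7.5%, 7.6% and 6.6% in the control and 10.7%, 8.5% and 8.4% in the null (difference 1.97 points, exact permutation p = 0.1). Neither pair of groups overlapped, and without null replicate 1 the differences were 2.17 and 1.22 points. Among the 3000 highest-fold peaks the difference in the smaller cluster was 5.06 points. The larger cluster held 20.4%, 19.6% and 20.5% of the 1000 highest-fold peaks in the control and 38.3%, 22.9% and 18.4% in the null, with overlap (difference 6.37 points, exact permutation p = 0.4), and the difference was 0.48 points without null replicate 1. Within a list, the median fold of summits in the smaller cluster was 0.469, 0.484 and 0.435 times that of the larger cluster in the control and 0.625, 0.759 and 0.730 times in the null. The larger cluster's share of summits was 30.6%, 30.4% and 30.0% in the control and 32.9%, 31.2% and 30.7% in the null (difference 1.25 points, exact permutation p = 0.1), and this difference was −2.28 points among peaks with a fold of at least 3.

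Summits of SNPC-4 lay farther from piRNA genes in the null. For the larger cluster the median distance from a summit to the nearest piRNA gene was 99, 98 and 101 bp in the control and 126, 112 and 121 bp in the null (difference 20.3 bp, exact permutation p = 0.1). SNPC-1.2 itself had the shortest medians, at 91, 75 and 70 bp. At 48 h the medians were 97, 98 and 101 bp in snpc-4::3xflag larvae and 104, 106 and 103 bp in those with snpc-1.3(-). The difference was greatest close to the genes: 30.7%, 31.8% and 28.9% of control summits lay within 50 bp of a piRNA gene against 20.9%, 21.3% and 21.4% of null summits. Within 200 bp the shares were 67.9%, 68.1% and 67.9% against 62.9%, 67.4% and 64.8%. Distances are to the annotated gene span, since the annotation used here gives no strand and so no 5′ end.

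In the smaller cluster the median distance was 149, 147 and 137 bp in the control and 258, 151.5 and 193 bp in the null (difference 56.5 bp, exact permutation p = 0.1). Null replicate 2 lay just above the highest control library, and without null replicate 1 the difference was 27.9 bp. Within 50 bp of a piRNA gene lay 15.7%, 16.3% and 15.5% of control summits and 10.4%, 11.3% and 9.88% of null summits, which did not overlap. The list of SNPC-1.2 replicate 3 held only 180 summits in this cluster, against 1693 and 1593 in the other two lists, and its median distance there was 567.5 bp.

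**Figure D3:**
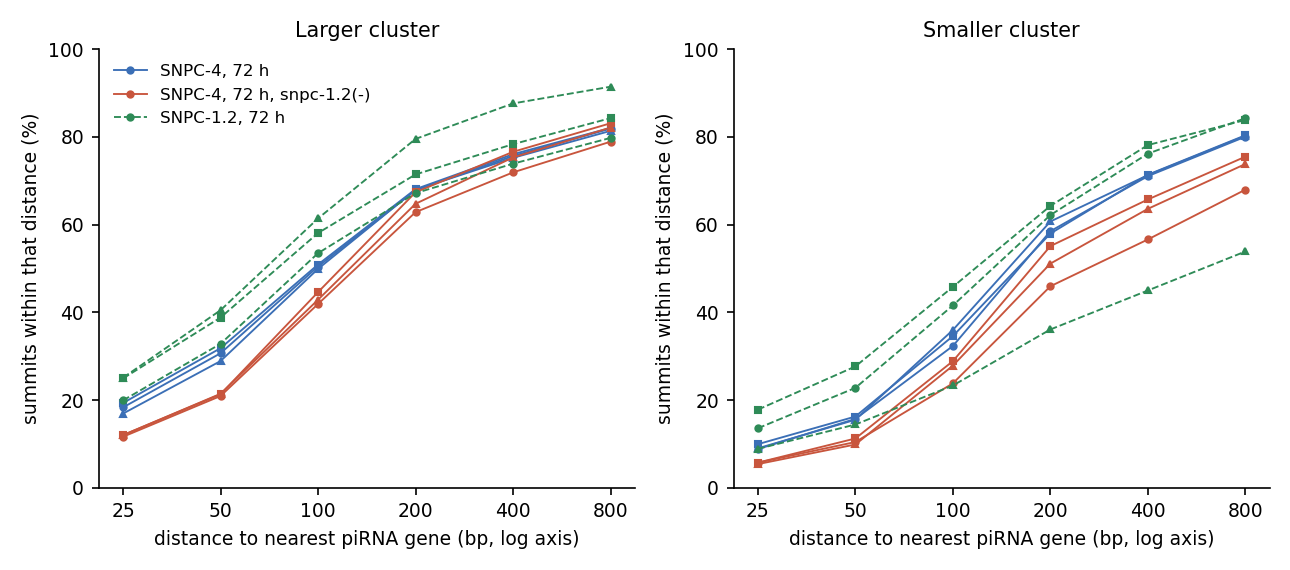
Percent of a list's summits within a given distance (bp, log axis) of the nearest piRNA gene; each line is 1 library. Null lines run below control lines at 25 to 100 bp in both clusters, and SNPC-1.2 lines run highest in the larger cluster up to 100 bp.

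Summits were then matched between lists. In the larger cluster, a summit of one control list had a summit of another control list within 50 bp in 62.8% to 67.7% of cases, and the null lists matched each other in 60.01% to 66.9%. Between the groups the range was 49.0% to 59.6%, below every comparison within a group. The mean of between-group matches less that within groups was −10.3 points (exact permutation p = 0.1, the lowest possible). In the smaller cluster the difference was −4.95 points and outside the clusters −3.18 points (exact permutation p = 0.1 for each). In both places the 2 directions were unequal. Null summits of the smaller cluster found a control summit in 41.4% to 55.6% of cases. Control summits there found a null summit in 53.8% to 60.1%. Within groups the ranges were 56.0% to 60.6% for control lists and 51.4% to 66.1% for null lists. Outside the clusters, null summits found a control summit in 78.0% to 87.7% of cases and control summits a null summit in 67.4% to 79.0%. Within groups the ranges were 80.6% to 86.6% for control lists and 71.8% to 86.8% for null lists. In both places the ranges overlapped, so these differences do not by themselves show that summits moved.

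**Figure D4:**
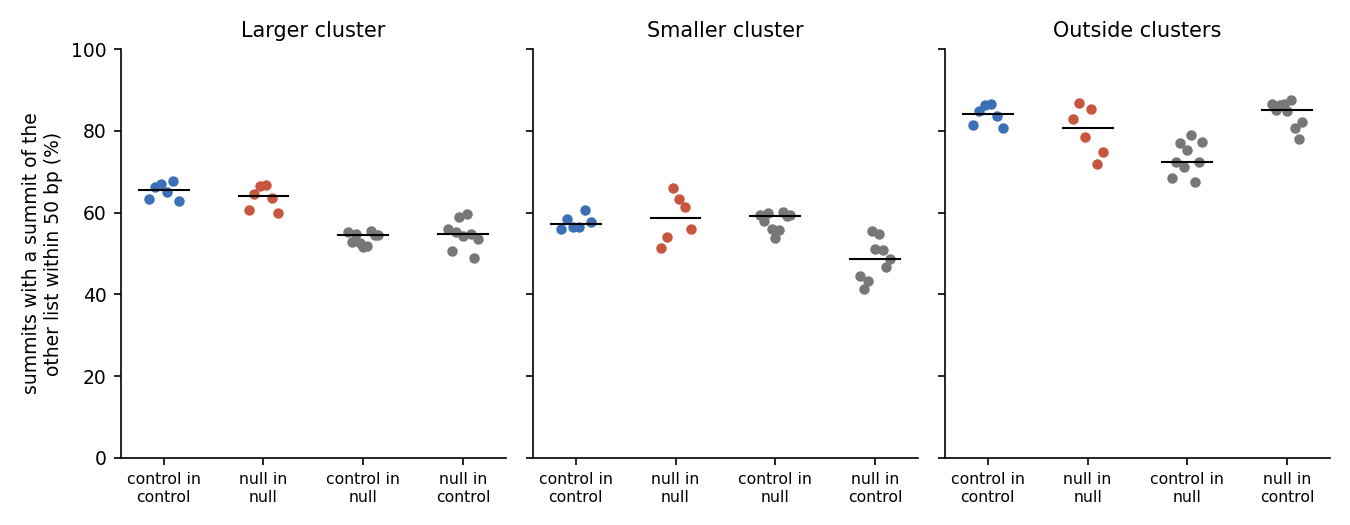
Percent of the summits of one list that have a summit of another list within 50 bp, for each ordered pair of lists (points) with the median (line); "control in null" means control summits searched for in a null list. In the larger cluster all between-group points (grey) lie below the within-group points.

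At piRNA genes that were bound in every one of the 6 libraries, the position of the summit with the highest fold could be compared directly. Among 4525 such genes of the larger cluster, the median absolute shift between the group means was 25 bp, and 714 (15.8%) had a shift of over 50 bp with no overlap between the groups. This held for 77 of 1165 genes (6.61%) in the smaller cluster and outside the clusters for 4 of 94 (4.26%). At genes of other short RNAs bound in all 6, the rule was met by 0 of 78 snRNA genes, 0 of 17 SL2 RNA genes, 0 of 38 tRNA genes inside the clusters and 0 of 399 outside, 1 of 114 snoRNA genes and 1 of 28 miRNA genes. The median shift was 2.67 bp at snRNA genes and 1 bp at SL2 genes, where the control libraries themselves ranged over 4 bp at the median gene. At piRNA genes of the larger cluster that range was 33 bp, so summits there were also less fixed within a group. It was 42 bp in the smaller cluster and 4 to 16 bp in the classes of other short RNAs. The shares of those other classes therefore do not show how often the rule is met where summits vary more. No share over all genes is given for this rule.

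All summits of the 6 lists were joined into sites, with neighbours at most 50 bp apart. Over the genome 2.43% of sites were lost and 1.18% gained. Of the 9800 sites of the larger cluster, 313 were lost, 198 were gained and 2251 were held by all 6 libraries. The lost sites lay close to piRNA genes, at a median of 31 bp, and 84.0% of them were within 100 bp. The gained sites lay at a median of 97 bp (52.0% within 100 bp) and the sites held by all 6 at 104 bp (48.2%). The nearest null summit was a median of 227, 266 and 245 bp from a lost site, and the nearest control summit was 186, 198 and 168 bp from a gained site. Of the smaller cluster's 4910 sites 36 were lost, at a median of 63 bp from a piRNA gene, and 82 were gained, at a median of 186 bp. There the nearest control summit lay a median of 664 to 712 bp from a gained site.

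The lists of SNPC-1.2 and of the 48 h larvae had no part in calling genes lost or gained. Of the 548 lost genes of the larger cluster, 87.6%, 87.2% and 73.5% had a peak in the 3 SNPC-1.2 lists, close to the 87.3%, 87.6% and 78.1% of genes with a peak in all 6 SNPC-4 libraries. Of the 157 gained genes, 35.7%, 37.6% and 43.3% had one. Among the 1599 genes with a peak in none of the 6, 32.0%, 41.3% and 41.2% had one. By the rule, lost genes and genes held by all 6 had a control peak, and gained genes and these 1599 had none. The contrast of lost with gained genes is therefore not separate from the presence of a control peak. SNPC-4 at 48 h had a peak at 54.2%, 43.1% and 46.5% of the lost genes and at 68.8%, 49.0% and 54.8% of the gained genes, ranges that overlap. In snpc-1.3(-) larvae the lost genes had a peak more often, at 67.3%, 56.9% and 63.3%, and these 3 libraries did not overlap the 48 h control. The gained genes had one at 50.3%, 46.5% and 37.6%, with overlap. SNPC-1.1 in germline nuclei had a peak at no more than 1.27% of the lost or gained genes of the larger cluster in any of its lists, and at 10.4%, 1.83% and 8.07% of the genes bound in all 6 libraries.

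At the level of sites, SNPC-1.2 had a summit within 50 bp of 49.2%, 53.4% and 29.4% of the lost sites of the larger cluster. It had one near 12.1%, 8.59% and 17.7% of the gained sites. For sites held by all 6 libraries the shares were 51.3%, 48.8% and 33.1%, close to those of the lost sites. By the rule, lost sites had a control summit and gained sites had none. The contrast of lost with gained sites is therefore not separate from the presence of a control summit. The gained genes of the smaller cluster had an SNPC-1.2 peak in 26.1%, 26.1% and 1.45% of cases, and a 48 h SNPC-4 peak in 73.9%, 71.0% and 69.6%. The 40 lost genes there had an SNPC-1.2 peak in 70%, 75% and 5% of cases. For genes of that cluster held by all 6 libraries the values were 74.7%, 72.4% and 6.09%. For those with a peak in none they were 32.4%, 35.5% and 2.49%. Of the 22 gained genes outside the clusters, SNPC-1.2 had a peak at 4.55%, 0% and 0%, and 48 h SNPC-4 at 77.3%, 77.3% and 81.8%. By the rule, these 22 genes too had no control peak.

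After these values had been seen, the piRNA genes of each cluster were sorted by the other lists alone, and the 72 h SNPC-4 peaks were counted in each class. A gene was in the SNPC-1.2 class with a peak in at least 2 of the 3 SNPC-1.2 lists and out of it with none, and in the 48 h class with a peak in all 3 lists of 48 h snpc-4::3xflag larvae and out of it with none. Genes between these limits were left out, 3860 of 11388 (33.9%) in the larger cluster and 1262 of 2816 (44.8%) in the smaller, so the classes held 288 of the 548 lost genes and 62 of the 157 gained genes of the larger cluster. Worms of both ages may have come from shared cultures. Among genes of the larger cluster, 1324 had SNPC-1.2 only. Of these, 36.8%, 39.1% and 33.7% had a peak in the control and 13.7%, 11.4% and 14.4% in the null, a difference of −23.4 points. The 161 genes with 48 h SNPC-4 only went the other way, from 70.8%, 56.5% and 68.9% in the control to 80.7%, 87.0% and 87.6% in the null, a difference of 19.7 points. The groups did not overlap in either class (exact permutation p = 0.1, adjusted p = 0.17 for each). For the genes with 48 h SNPC-4 only, the difference was 3.33 points with a 500-bp window (exact permutation p = 1) and 0 by overlap with called regions, and the classes themselves were redrawn in each case.

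The same order was found in the smaller cluster. Its 138 genes with SNPC-1.2 only had a peak in 28.3%, 29.7% and 29.7% of cases in the control and 12.3%, 9.42% and 15.2% in the null (difference −16.9 points). Its 267 genes with 48 h SNPC-4 only had one in 76.8%, 70.8% and 78.7% of cases in the control and 93.3%, 91.0% and 93.3% in the null (difference 17.1 points). Neither pair of groups overlapped (exact permutation p = 0.1 for each). Genes with both peaks differed less, by −5.81 points over 5376 genes of the larger cluster (exact permutation p = 0.1) and by −1.79 points over 892 genes of the smaller (exact permutation p = 0.3). Genes with neither were more often bound in the null, by 6.35 points of 667 genes and by 7.65 points of 257 genes (exact permutation p = 0.1 for each). In the larger cluster that difference was 0.89 points with a 100-bp window and 0.95 points at a fold of at least 3, with overlap (exact permutation p = 0.2 and 0.5), and 0 by overlap with called regions. The classes held unequal shares of the clusters: genes with SNPC-1.2 only were 11.6% of the larger cluster and 4.90% of the smaller, and genes with 48 h SNPC-4 only 1.41% and 9.48%.

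**Figure D5:**
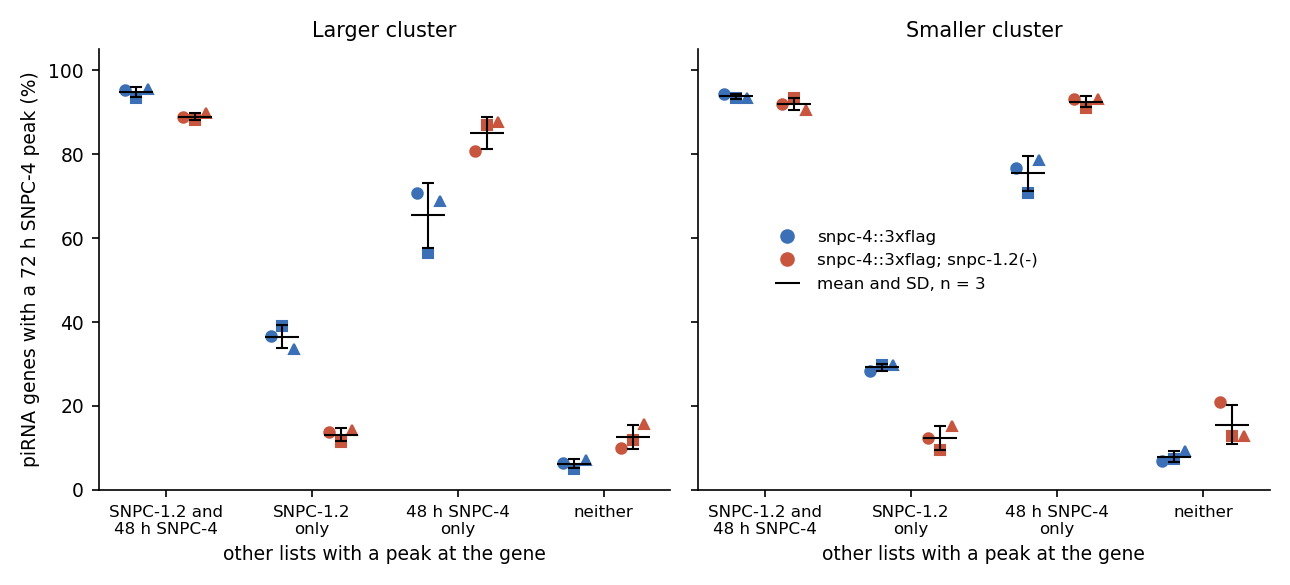
Percent of piRNA genes with a 72 h SNPC-4 peak, by whether SNPC-1.2 (72 h) and SNPC-4 (48 h) had a peak at the gene; points are libraries, bars mean and SD (n = 3). In both clusters the null lies below the control for genes with SNPC-1.2 only and above it for genes with 48 h SNPC-4 only.

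When the 48 h class was instead taken from the snpc-1.3(-) larvae, the difference for genes with 48 h SNPC-4 only was 8.22 points in the larger cluster, where the groups then overlapped, and 13.7 points in the smaller, and for genes with SNPC-1.2 only it was −13.2 and −11.1 points. For the larger cluster as a whole, the null difference at 72 h (−7.73 points) was set against that of snpc-1.3(-) at 48 h (1.25 points). The larval groups overlapped, with a peak at 66.7%, 62.9% and 65.2% of the genes in the control and 67.9%, 65.8% and 64.8% without snpc-1.3. The differences differed by −8.98 points (stratified exact permutation p = 0.025, adjusted p = 0.17), with the deleted gene and the age confounded as before.

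Counts of lost and gained genes in the other classes are read against 1.61% lost and 0.631% gained over all genes, shares at which most of these classes would hold few such genes or none. These shares are of annotated genes, whether or not they had a peak in the control. The spliceosomal and other snRNA genes (99), the classical SNAPc targets, had a peak at 81.8%, 79.8% and 81.8% in the control and at 79.8% in each null library, with 78 in all 6, 0 lost and 0 gained, against 18.2% to 25.3% in N2. C52E4.8 (V:11980118-11980261) had a fold of 174 to 262 in the control and 178 to 307 in the null, and F38E11.10 (IV:9444642-9444763) one of 182 to 274 and 161 to 273. All 10 genes of SmY RNA, a short RNA of trans-splicing, had a peak in all 6 libraries. Of the 18 genes for the spliced leader RNA SL2, 17 had a peak in all 6, led by sls-2.4 (I:4172206-4172315) and sls-2.8 (III:12250465-12250575). SL1 RNA genes (12) had a peak in 8.33% in each control library and in 8.33% to 16.7% in the null. Near-identical copies may share or lose reads in mapping there, as for the rRNA and tRNA genes. The RNase P RNA gene rpr-1, the RNase MRP RNA gene mrpr-1 and the Y RNA gene yrn-1 had a peak in all 6.

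Of the 41 tRNA genes inside the clusters, 38 had a peak in all 6 libraries and 0 were lost or gained, and the groups overlapped (92.7% to 95.1% against 95.1% to 97.6%). Y37A1B.t1 (IV:14013805-14013876), in the larger cluster, led with folds of 98.8, 85.3 and 116 in the control and 75.7, 99.3 and 116 in the null. Of 593 tRNA genes elsewhere, 399 had a peak in all 6, 3 were lost and 1 gained. The percentages were 83.5%, 79.6% and 82.8% in the control and 71.0%, 78.1% and 80.8% in the null, where null replicate 1 was lowest and the groups overlapped (exact permutation p = 0.2). The lost genes K02E2.t1, Y54G2A.t1 and ZK970.t1 had folds of 2.06 to 2.93, and the gained Y38E10A.t1 had folds of 2.81 to 4.02.

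Of 260 miRNA genes, 16.9%, 16.9% and 18.5% had a peak in the control and 14.6%, 13.8% and 15.4% in the null (difference −2.82 points, exact permutation p = 0.1), with 4.23% to 6.15% in N2. The groups did not overlap, but the sign turned among peaks with a fold of at least 3. The 3 lost genes, 1.15% of 260 against 1.61% of all genes, were mir-8189, mir-58.2 and mir-271, with folds of 1.63 to 2.76, and all 3 had a peak in every 48 h SNPC-4 list. None was gained, and 28 had a peak in all 6, among them mir-2214 (III:7278715-7278778) with folds of 48.5 to 72.4 in the control and 47.2 to 70.1 in the null. Of 346 snoRNA genes 114 had a peak in all 6 and 0 were lost or gained, and of 22 rRNA genes 10 had one in all 6. Histone genes (72) and ribosomal protein genes (78) had 0 lost and 0 gained, and their percentages overlapped between the groups. For ribosomal protein genes null replicate 3 lay at 75.6% and the other null libraries at 46.2% and 44.9%.

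Outside the clusters, protein-coding genes had a peak less often in the null libraries. There 15.5%, 14.8% and 15.5% of 19045 genes had a peak in the control and 12.2%, 12.6% and 14.6% in the null (difference −2.17 points, exact permutation p = 0.1), against 2.18% to 7.21% in N2. Of them 119 were lost (0.625%) and 11 gained (0.0578%), both under the shares of all genes. Fewer of them had a peak to lose, with a control mean of 15.3%. That mean was 33.3% for all genes and 68.1% for piRNA genes of the larger cluster. The lower lost share therefore does not show that bound genes of this class lost peaks less often. The number of called regions outside the clusters was also lower, at 7457 to 7964 in the control and 6264, 6680 and 7556 in the null, with overlap. The lost genes with the highest folds were dsh-2, a Dishevelled homologue of Wnt signalling (II:5078233-5081174; folds of 5.42, 4.63 and 6.12), ark-1, a tyrosine kinase gene (IV:12622091-12631022; 7.48, 5.69 and 2.35), and npr-32, which encodes a predicted neuropeptide receptor and has piRNA genes within 500 bp (IV:17225969-17231058; 4.89, 4.49 and 5.52). The gained genes were led by zipt-11, a zinc transporter gene, C50E10.2 and the actin gene act-2, with folds of 1.46 to 5.60. Untagged N2 had a peak at act-2 in all 3 lists, at zipt-11 in 1 and at C50E10.2 in none.

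Inside the clusters 6 of 938 protein-coding genes were lost and 23 gained (2.45%). The lost genes with the highest folds were Y105C5B.11, Y37A1B.7 and hlh-31, a helix-loop-helix factor gene. Among the gained genes, C52D10.3 shared its summit with the gained 21ur-9464, and irld-59 and the C-type lectin gene clec-193 had folds of 5.28 to 7.98 in the null lists. Peaks at the ends of these genes can belong to piRNA genes beside them.

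Genes for SNAPc subunits and piRNA factors were read from a list. Of its 16 annotated genes for SNAPc and piRNA transcription, 3 had a peak in all 6 libraries, 9 in none, and none was lost or gained. The 3 were snpc-1.1 (folds of 6.04 to 6.90 in the control and 3.43 to 6.43 in the null), snpc-3.1 and snpc-3.4. At snpc-1.2 (III:13165659-13169541), the gene mutated in the null, all 3 control lists and 2 of the 3 null lists had a peak, which does not check the mutation. The piRNA factor genes prde-1 and tofu-5 had a peak in all control lists, and in 2 and 1 of the null lists. Neither snpc-4 nor snpc-1.3 had a peak in any of the 6. Of 14 genes for piRNA processing and Argonaute proteins, 7 had a peak in all 6 and none was lost or gained. Among the 7 were prg-1, the piRNA Argonaute gene, tofu-6 (7.46 to 9.86 in the control and 5.92 to 8.59 in the null) and gtsf-1, which lies in the larger cluster (16.4 to 19.6 and 13.6 to 19.8). Untagged N2 also had a peak at several of these genes. It had one in all 3 lists at tofu-6, pid-3 and snpc-3.4, and in 2 at prg-1 and gtsf-1. At snpc-1.1 and snpc-3.1 it had one in 1 list. The others of the 7, tofu-1, pid-1 and tost-1, had none in N2.

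Outside the clusters, regions of the 6 lists were merged where they overlapped. Over the whole genome 2.75% of merged regions were lost and 0.689% gained. Outside the clusters 265 were lost, 37 gained and 5399 held by all 6 libraries. The lost regions lay on all 6 chromosomes, 31 of them on IV, and were weak, with a median fold of 2.16 and a highest of 3.39 against a median of 4.33 for those held by all 6. The gained regions had a median fold of 2.08. Of the lost regions 136 (51.3%) lay at the end of a protein-coding gene, close to the 51.8% of regions held by all 6, and 1 lay at a piRNA gene. Of the 37 gained regions, 23 (62.2%) lay on IV and 17 (45.9%) had a piRNA gene within 200 bp and no other short RNA gene, against 1.32% of the regions held by all 6. None of the 37 overlapped a region of any SNPC-1.2 list, and 56.8% to 59.5% overlapped one of the 48 h SNPC-4 lists. By the rule, none overlapped a region of the 72 h control lists either. Their absence from the 72 h SNPC-1.2 lists is therefore not separate from the absence of a control region. Outside the clusters the SNPC-1.2 lists were also shorter, with 2698, 1581 and 558 regions against 7349 to 7756 in the 48 h SNPC-4 lists. Of the lost regions, 15.1%, 1.89% and 0.377% overlapped a region of the 3 SNPC-1.2 lists, and 43.4% to 48.7% one of the 48 h SNPC-4 lists. For regions held by all 6 these shares were 41.5%, 26.3% and 8.74%, and 93.4% to 94.8%. Of the gained regions on IV, 14 lay within 1 Mb of the smaller cluster.

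Away from short RNA genes, the lost regions with the highest folds were V:4067782-4068228 over the pseudogene D1065.2 and the noncoding gene D1065.8, IV:11196892-11197801 with no gene within 200 bp, I:288036-288380 inside ztf-3, which encodes a zinc finger protein, and II:11732575-11732969 beside F13D12.8, with folds of 2.69 to 4.09 in the control. The gained region V:17513890-17514857, over the pseudogene srw-45, had folds of 5.08, 6.43 and 11.0 in the null. It overlapped no region in the control, N2, SNPC-1.2, SNPC-1.1 or 48 h lists. A second region over srw-45, V:17519232-17519545, had folds of 2.42, 2.68 and 4.68 and was likewise in none of those lists. The next were V:3479657-3479993 inside the chemoreceptor gene srbc-30 and IV:8396943-8398496 over timm-17B.2, a gene named for mitochondrial protein import, with folds of 2.34 to 3.47.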

How the data were processed

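Each immunoprecipitated library has 1 deposited peak list. Per the submitters' processing notes the tools were MACS2 2.1.2 and deepTools, and the build was WBcel235. The aligner and filters are not given in the sources used here. The deposited lists give a fold (a linear ratio over background, column 7) and the −log10 of the q-value (column 9, at least 1.3) at each summit, both as the authors computed them, and the summit as another kind of deposited value, an offset in bp. Folds rank, filter or describe the peaks of 1 list, and as values they enter no test between libraries. The alternative with a fold of at least 3 cuts all lists at the same fold before libraries are compared. Its results therefore also depend on the scale of the folds in each list. The median fold in the smaller cluster was 2.26 to 2.58 in the control lists and 2.85 to 3.29 in the null lists. Per the labels' protocols worms were cross-linked with formaldehyde, and 48 h and 72 h worms may come from shared cultures.

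Gene classes came from RefSeq (WBcel235, 46926 genes). Analyses used Python 3, numpy and pandas, checked on simulated lists. Exact two-sided permutation tests over the 20 labellings of 3 against 3 (smallest p 0.1) or 400 stratified labellings (smallest p 0.005) were adjusted by Benjamini-Hochberg over all 39 tests. Lost and gained features have no test of their own and are read against the share over all features. The control libraries serve in every 72 h comparison.

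The lists compared, the gene lists and the rules were chosen with earlier results of these data known. Named piRNA genes are the 4 lost and 4 gained of the larger cluster, and 2 of each elsewhere, with the highest mean fold. For other classes up to 3 lost, 3 gained and 2 genes held by all 6 were named or ranged by that rule, as were 4 lost and 4 gained regions over 500 bp from short RNA genes. The alternatives were other windows, overlap in place of summits, stricter q or fold, lists of equal length, other matching distances, 1 summit per region, leaving out each library, and a replicate block. Promoter motifs and sequences were not used here.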

Additional observations from a re-analysis of the deposited data

Results flagged for a closer look

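The difference between the null and the control in piRNA genes of the larger cluster with a peak stood apart from the same difference for snpc-1.3(-) at 48 h, by −8.98 percentage points (stratified exact permutation p = 0.025, adjusted p = 0.17). It was −7.73 points in adults without snpc-1.2 and 1.25 points in larvae without snpc-1.3. Age and deleted gene cannot be told apart here.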

How the results depend on the processing

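In all, 51 results were recomputed under 628 alternatives. Of these, 529 kept the side of the threshold without reversing direction, or gave a count within 1.5 times. Of the 18 values whose groups did not overlap, 228 of 235 alternatives did not reverse the sign. Both totals include alternatives with no difference between the groups. They also include the replicate block, which leaves each difference between group means unchanged, so its sign could not turn. Read depth is unknown, so what depth hides could not be measured. The cause of the changes below was not tested, except that leaving out a library relaxes the rule for lost and gained features, so such counts can only stay or grow. No sign changes were found under other matching distances, and the counts by other joining distances stayed within 1.5 times.

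Signs turned as follows. For piRNA genes of the smaller cluster the difference was −2.96 points with a 100-bp window, and 1 library left out gave −0.11 to 1.31 points. Against the snpc-1.3 comparison it was 0.60 points with a 500-bp window, 2.72 by region overlap, 3.07 at −log10 q of at least 5, 30.8 at fold of at least 3, 7.14 with lists of equal length, and −1.14 to 0.28 with 1 library left out. The larger cluster's share of summits was −2.28 points at fold of at least 3, and against the snpc-1.3 comparison −3.56 points there, −0.35 with equal lists, and 1.55 with 1 summit per region, where the exact permutation p was 0.015. With 1 summit per region the distance to piRNA genes in the larger cluster was −685 bp, over few summits, and the smaller cluster's share −0.10 points. At fold of at least 3 the distance in the smaller cluster was −22.7 bp and the miRNA difference 0.51 points. The tRNA difference inside clusters was −0.81 points at 100 bp. Histone genes gave 2.31 points at 100 bp, 0.93 by overlap and −3.01 to 3.24 with 1 library left out. Ribosomal protein genes gave −0.85 at 500 bp, −3.85 by overlap and −9.19 to 6.20 with 1 library left out. For the smaller cluster, genes with SNPC-1.2 and 48 h SNPC-4 gave 7.26 points at fold of at least 3 and 0.42 with equal lists, genes with SNPC-1.2 only 33.3 by overlap, and genes with neither −1.09 at 100 bp. Classes were redrawn under each of these settings.

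The larger cluster's difference from the snpc-1.3 comparison was −7.60 points with a 100-bp window, where the unadjusted stratified exact permutation p was 0.075. The covered length there ranged from −4.92 to −1.88 points with 1 library left out, with an exact permutation p of 0.015 without null replicate 1.

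Lost piRNA genes of the larger cluster numbered 45 with a 500-bp window, 5 by overlap and 974 at fold of at least 3, and gained genes 12 and 0 under the first 2 settings. Of the smaller cluster's genes 17, 1 and 4 were lost under those settings and 22 with equal lists, while 23 were gained at 100 bp and 416 at fold of at least 3. Protein-coding genes lost outside clusters numbered 55 at 100 bp, 193 at 500 bp and 180 by overlap. Those gained numbered 19 by overlap and 5 at fold of at least 3. Sites lost in the smaller cluster numbered 21 at −log10 q of at least 5, 3 at fold of at least 3 and 22 with equal lists, with 308 gained at fold of at least 3. Regions outside clusters at fold of at least 3 were 144 lost and 5 gained.

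With 1 library left out, gained piRNA genes of the larger cluster numbered 208 to 277 and lost ones of the smaller 57 to 71. Protein-coding genes outside clusters were 144 to 230 lost and 14 to 36 gained. Sites of the larger cluster were 405 to 473 lost and 260 to 398 gained, and of the smaller 48 to 91 and 107 to 216. Regions outside clusters were 321 to 515 lost and 42 to 67 gained.

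Gene by gene, the replicate numbers showed no pairing. Deviations of same-numbered control and null libraries from their group means correlated at −0.0097 to 0.0002 over 8947 genes. A correlation over genes cannot show a shift shared by all genes of a library, so pairing of that kind is not known. With a replicate block, under a looser rule, 1483 piRNA genes were lost and 614 gained in the larger cluster, and 197 and 195 in the smaller. Under the replicate block 459 protein-coding genes outside clusters were lost and 75 gained, 949 sites of the larger cluster lost and 831 gained, 213 and 436 sites of the smaller, and 1006 regions outside clusters lost and 143 gained. The block's smallest p is 0.25.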

Other observations

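On chromosome I the control libraries held 1490 to 1582 summits and the null libraries 1206 to 1419, and on chromosome III they held 1528 to 1641 and 1258 to 1462, with no overlap in either case. On chromosome II the ranges were 1587 to 1749 and 1369 to 1625, on V 1786 to 1940 and 1498 to 1847, on IV outside the clusters 1237 to 1329 and 1148 to 1297, and on X 1315 to 1401 and 976 to 1403, with overlap in all 4 cases. In the megabase before the larger cluster the control held 139 to 158 summits and the null 117 to 133.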
